A study of Sus scrofa with 48 samples.

Results

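The pyruvate dehydrogenase complex and the kinases that switch it off were followed in the fat that surrounds the kidneys, the perirenal adipose tissue (PRAT), of 48 pigs. The complex sits in the mitochondrial matrix and turns pyruvate from glycolysis into acetyl-CoA, which either enters the citric acid cycle or, after export as citrate, is built into fatty acids. The E1 component (PDHA1 and PDHB; PDHA2 is a testis form of the alpha chain) removes the carboxyl group of pyruvate, E2 (DLAT) passes the acetyl group to coenzyme A, E3 (DLD) reoxidises the lipoyl arm, and PDHX holds E3 to the E2 core. The kinases PDK1 to PDK4 phosphorylate E1 and so inactivate the complex, and phosphatases reverse this. PDK4 is known as the kinase whose transcript rises in fasting and when fatty acids are the main fuel, and PDK1 as the one induced in hypoxia.

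Members were the probes that the scanner files name after one of these 10 genes. This gave 40 of the 60306 probes of the array, and the authors kept 37 of these 40 and 38142 of all probes after their quality filter. Probes were found for 9 of the 10 genes, namely 5 subunits (20 kept probes) and 4 kinases (17 kept probes). No probe is named PDHA2 in the scanner files. A probe that the study's own annotation calls PDHA2 carries the name PDHA1 in the files and is counted under PDHA1 here.

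The pigs were Large White barrows of 132 days of age from a low and a high line that were bred apart for residual feed intake (RFI), the feed eaten beyond what growth and maintenance predict. Low RFI pigs (RFIneg) are the more efficient ones and high RFI pigs (RFIpl) the less efficient, and no unselected line was included. Within each line, 12 pigs received a high-fat, high-fiber (HF) diet containing rapeseed and soybean oils with crushed wheat straw, and 12 received a low-fat, low-fiber (LF) diet in which cereal starch was the energy source. Both diets were offered ad libitum and were formulated to equal energy and protein, so fat, fiber and starch changed together and cannot be told apart. The study reports that HF pigs ate less than LF pigs, so intake changed with the diet and cannot be told apart from it. Intake was not analysed here. Each array received the Cy3-labelled RNA of a single pig.

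The arrays were spread over 6 slides of 8, scanned on 2 days, and each slide carried 2 arrays of every group. Per array, between 38875 and 47814 spots were well above background, no spot was saturated, and the median intensity of the kept probes was between 382 and 638. All 7 adipocyte markers (ADIPOQ, PLIN1, FABP4, CIDEC, LIPE, PNPLA2 and CD36) were well above background on all 48 arrays. Levels are given as log2 of the spot's median intensity minus the median of all probes of that array, so that a value of 5 means 5 doublings above the median probe. A level holds the brightness of its own probe, and levels of different genes are therefore not set against each other. A gene is represented by its kept probe with the highest mean. Differences were tested with limma over all kept probes and called at fold over 1.1, raw p under 0.01 and a p under 0.08 after Benjamini-Hochberg (BH) adjustment, the cut-offs in the study's methods.

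Some of the probes themselves are shown first, because the results turn on related kinases behaving differently and on separate probes of a gene behaving alike. All are 60 bases long and are printed as the scanner files hold them. The first pair compares a PDK1 probe with a PDK2 probe, with capitals at the bases that are identical in the best ungapped alignment.
PDK1 (A_72_P471686): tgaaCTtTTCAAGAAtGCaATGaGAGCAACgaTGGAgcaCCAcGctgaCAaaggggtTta
PDK2 (A_72_P383353): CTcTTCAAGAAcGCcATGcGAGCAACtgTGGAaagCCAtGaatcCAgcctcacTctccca
These are the closest probes of different member genes by this count, with 33 of 56 aligned bases identical and a longest common run of 8 bases. The next set covers 3 separate stretches of PDHA1, the catalytic alpha chain.
PDHA1 (A_72_P645767): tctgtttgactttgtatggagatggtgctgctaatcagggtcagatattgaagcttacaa
PDHA1 (A_72_P086206): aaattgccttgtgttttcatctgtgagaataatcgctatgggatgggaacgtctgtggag
PDHA1 (A_72_P513752): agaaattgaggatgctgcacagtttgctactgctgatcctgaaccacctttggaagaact
The last of these is the probe with the PDHA2 name in the study's annotation. For the components that carry lipoyl arms, a probe of DLAT and the only probe of PDHX are given.
DLAT (A_72_P468917): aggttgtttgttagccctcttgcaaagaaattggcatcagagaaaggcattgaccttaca
PDHX (A_72_P155826): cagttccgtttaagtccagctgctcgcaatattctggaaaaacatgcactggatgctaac
Some member probes share sequence and are not separate readings of a transcript. The PDK4 probes A_72_P576424 and O11548 are the same 60 bases, and both share the 19-base run CTAGTGGATGGAAACTGAC with A_72_P561949. A further pair of PDK4 probes and a pair of DLD probes each share a run of 33 bases. Shorter runs are shared by another DLD pair (17 bases) and by the PDK3 probes A_72_P290514 and A_72_P465465 (16 bases).

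The first comparison asked how the diet affected transcripts of the complex and of its kinases. All 5 measured subunits were lower in HF than in LF pigs, by 1.16-fold (PDHX) to 1.64-fold (PDHB). The kinases went different ways: PDK1 was 1.35-fold lower, PDK4 was 1.77-fold higher, and PDK2 and PDK3 were not called. Thus 7 of 9 genes were called, 6 lower and 1 higher, whereas 25.5% of the 8659 named genes with a kept probe were called for diet (19.2% lower and 6.26% higher in HF). The median difference was -0.51 (log2, HF minus LF) over the 5 subunits and -0.05 over the 4 kinases, beside -0.05 over all named genes. PDHA1, PDHA2, DLAT and PDK1 had been listed by the study as lower in HF pigs on these same samples, so the count is not independent evidence of its direction. The probe listed there as PDHA2 is counted under PDHA1 here. The study's PDK1 entry and a part of its DLAT entries rest on probes that the scanner files name otherwise and that are no members here. In tissue RNA, fewer cells of a type and less transcript per cell cannot be told apart.

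Among the kept probes, 31 of 37 were called for diet, against 24.5% of all kept probes. Probes of a gene are repeated readings of it, so this count adds no evidence beyond the count of genes. The 20 lower ones comprised 19 of the 20 subunit probes and the PDK1 probe, and the 11 higher ones were the 11 PDK4 probes. The subunit probe that was not called was the dim DLD probe O10194, with a median intensity of 68 and a difference of -0.12 (BH p = 0.124). The probes of each called gene thus gave 1 direction, as the plot of all 40 probes shows. PDK2 and PDK3 were not called, and the sign of their probes is not read.

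**Figure D1:**
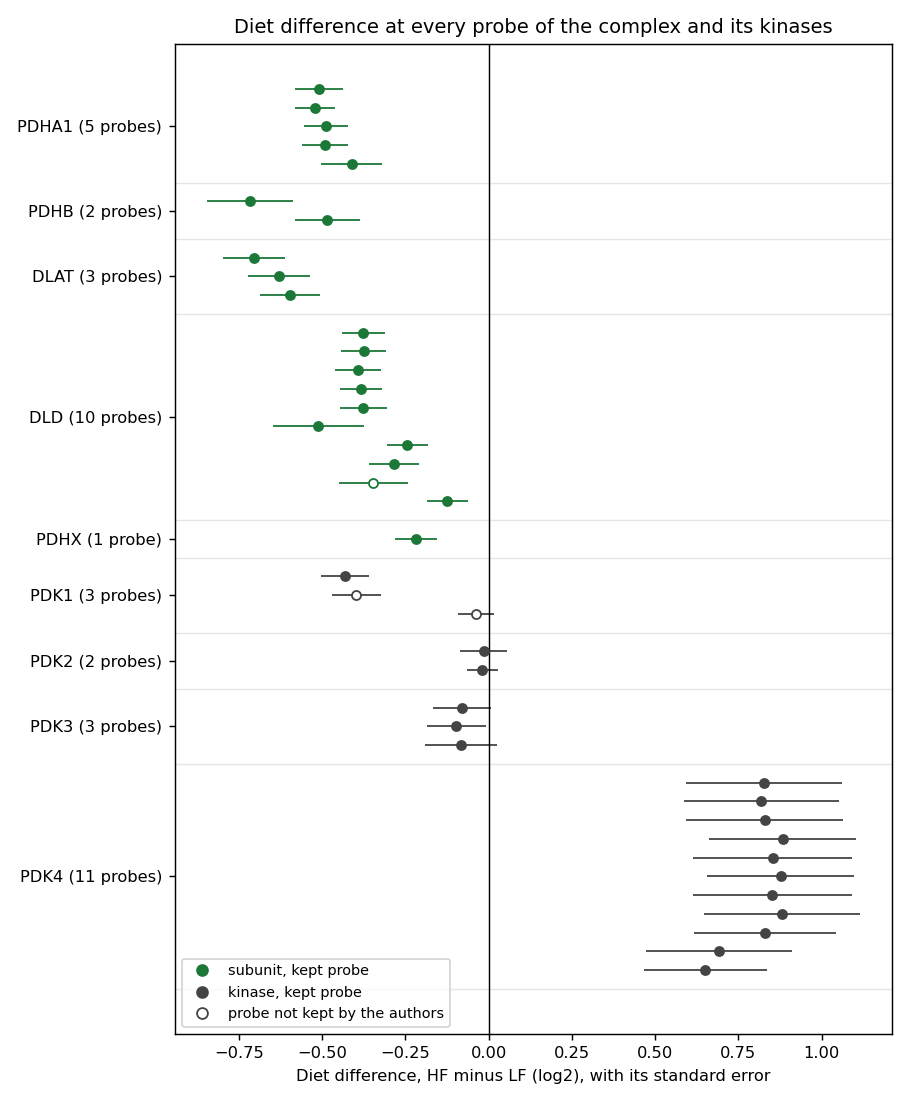
Diet difference (HF minus LF, log2, x axis) with its standard error for all 40 probes, grouped by gene and ordered by mean signal within a gene; open points are the 3 probes the authors did not keep. The subunit probes all lie below 0, the 11 PDK4 probes lie between 0.65 and 0.88, and the PDK2 and PDK3 probes lie close to 0.

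E1 carries out the step that commits pyruvate to oxidation. PDHA1 levels had a lowest, median and highest value of 7.42, 7.78 and 8.11 in HF low RFI pigs, and of 7.41, 7.64 and 8.18 in HF high RFI pigs. In LF pigs they were 7.63, 8.29 and 8.56 in the low RFI line and 7.66, 8.30 and 8.68 in the high RFI line. The ranges of the diets overlapped, but no HF pig reached the LF mean (0 of 24) and 10 lay below the lowest LF pig. The difference was -0.51 ± 0.07 (SE), a 1.42-fold lower signal (limma, BH p = 1.4e-06). The 5 PDHA1 probes spanned -0.52 to -0.41 and were all called, including the 3 printed above.

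PDHB, the beta chain of E1, varied more among pigs of a group. Its lowest, median and highest levels were 6.73, 7.41 and 8.12 in HF low RFI and 6.82, 7.40 and 7.97 in HF high RFI pigs. They were 7.42, 8.16 and 8.65 in LF low RFI and 6.94, 8.39 and 8.73 in LF high RFI pigs. All 24 HF pigs were below the LF mean, yet only 3 were below the lowest LF pig, since LF high RFI pigs reached down into the HF range. The difference was -0.72 ± 0.13 (SE; BH p = 4.8e-05), and the dimmer probe O12377 gave -0.48 (BH p = 0.000234).

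DLAT, the acetyltransferase of the E2 core, separated the diets most clearly by rank. Levels were 4.42, 4.79 and 5.48 (lowest, median, highest) in HF low RFI and 4.50, 4.96 and 5.59 in HF high RFI pigs. In LF pigs they were 5.29, 5.56 and 6.28 for low RFI and 5.04, 5.85 and 6.37 for high RFI. Of the 24 HF pigs, 14 were below every LF pig and all 24 were below the LF mean. The difference was -0.71 ± 0.09 (SE), a 1.63-fold lower signal (BH p = 4.2e-07), and its 3 probes spanned -0.71 to -0.60.

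DLD and PDHX showed smaller differences. DLD, the E3 dehydrogenase that also serves the 2-oxoglutarate, branched-chain and glycine complexes, had levels from 4.95 to 6.02 in HF and from 5.53 to 6.45 in LF pigs. Its difference was -0.38 ± 0.06 (SE; BH p = 2.3e-05), with 11 HF pigs below the lowest LF pig. Of its 9 kept probes 8 were called, between -0.51 and -0.24. PDHX ranged from 1.53 to 2.44 in HF and from 1.76 to 2.62 in LF pigs, a difference of -0.22 ± 0.06 (SE; BH p = 0.00775), with 20 of 24 HF pigs below the LF mean. PDHX has 1 probe and was not called within either line or either scan day alone.

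On every one of the 6 slides the HF mean was below the LF mean for each of the 5 subunits. The difference per slide ran from -0.80 to -0.19 for PDHA1, from -1.28 to -0.10 for PDHB and from -1.17 to -0.24 for DLAT. By scan day, PDHA1 differed by -0.51 on day 1 and -0.51 on day 2, and DLAT by -0.77 and -0.64.

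**Figure D2:**
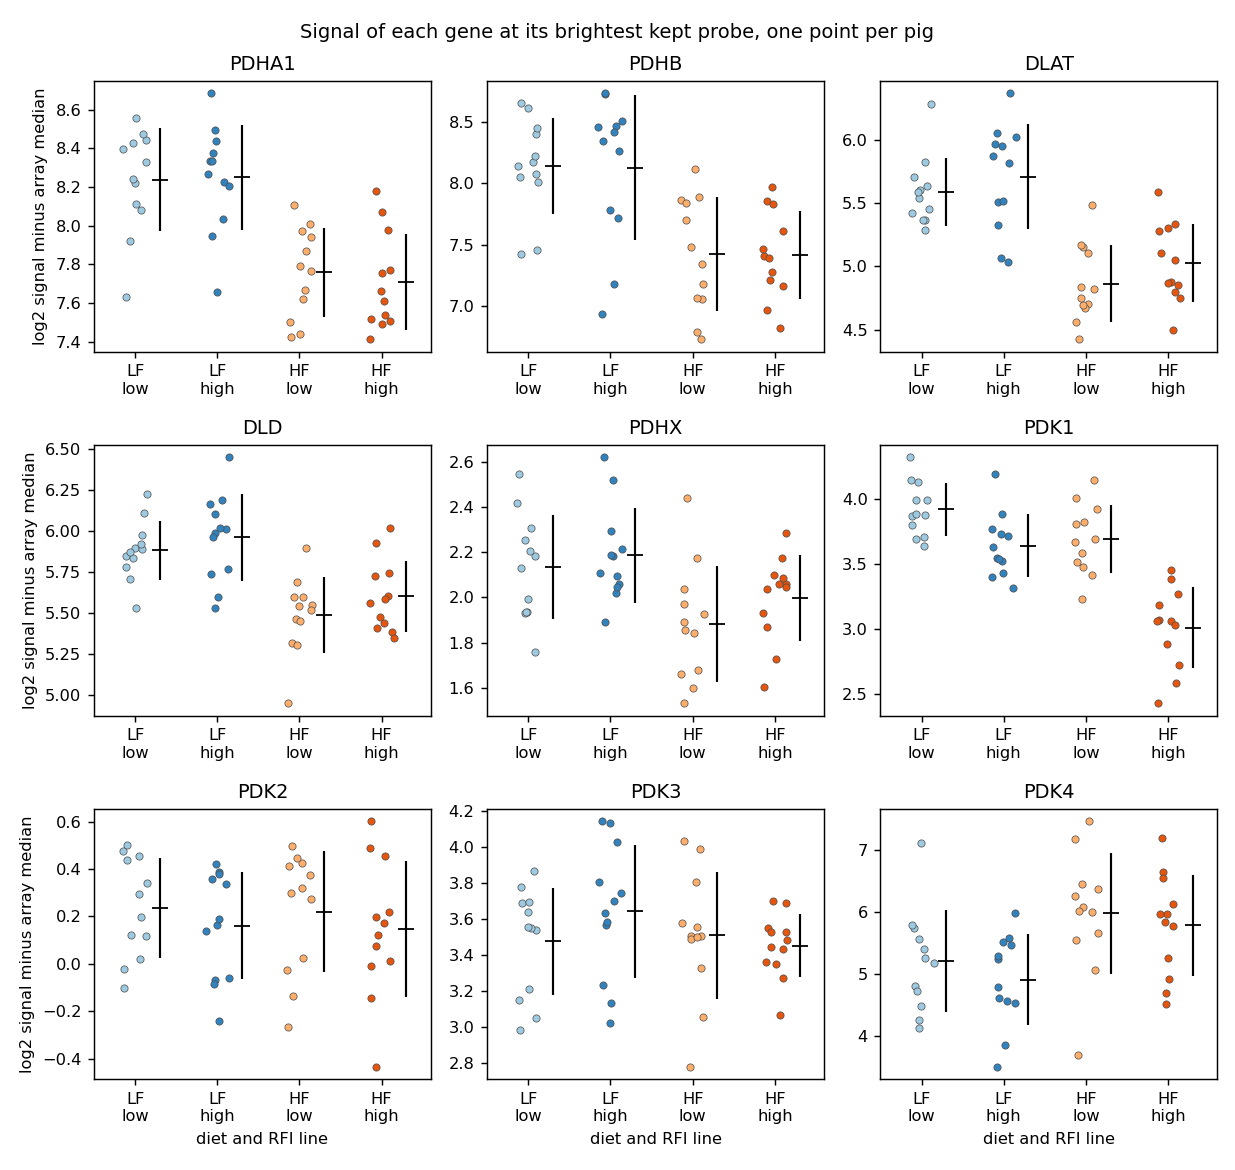
Levels (log2 intensity minus the array median, y axes with separate ranges) of the 9 genes in the 4 diet and line groups, with a point per pig and, beside each column, the mean and SD of 12 pigs. PDHA1, PDHB, DLAT and DLD are lower in HF pigs of both lines, PDK4 is higher with wide scatter, and PDK1 is lowest in HF high RFI pigs.

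PDK4 was the only member that was higher in HF pigs. Its levels were 3.69, 6.05 and 7.47 (lowest, median, highest) in HF low RFI and 4.51, 5.90 and 7.19 in HF high RFI pigs. In LF pigs they were 4.12, 5.21 and 7.12 in the low RFI line and 3.49, 5.01 and 5.97 in the high RFI line. The ranges overlapped widely: 20 of 24 HF pigs exceeded the LF mean and 3 were above the highest LF pig, while 1 HF low RFI pig, at 3.69, lay near the bottom of the LF range. The difference was 0.83 ± 0.23 (SE), a 1.77-fold higher signal (limma, BH p = 0.00627). Its SD of 0.89 in HF and 0.78 in LF pigs was the largest of the 9 genes.

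All 11 PDK4 probes were called, with differences of 0.65 to 0.88, and within groups they tracked the brightest probe with r between 0.94 and 0.999 across the 48 pigs. HF pigs averaged higher on 5 of 6 slides, with differences per slide from -0.08 to 1.36. By scan day the difference was 0.46 on day 1, where it was not called (raw p = 0.185, BH p = 0.405 by limma), and 1.19 on day 2. Whether the days differ was not tested. In low RFI pigs alone the difference was 0.78 and not called (BH p = 0.148), and in high RFI pigs alone it was 0.88 and called, without a detectable difference between lines (interaction -0.10, 95% interval -1.05 to 0.85).

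PDK1 moved against PDK4. Its lowest, median and highest levels were 3.23, 3.68 and 4.15 in HF low RFI pigs, but 2.43, 3.06 and 3.45 in HF high RFI pigs. In LF pigs they were 3.64, 3.88 and 4.33 in the low RFI line and 3.31, 3.59 and 4.20 in the high RFI line. The diet difference was -0.43 ± 0.07 (SE; BH p = 2.3e-05), and 11 of 24 HF pigs, with overlapping ranges, were below the lowest LF pig. Of these 11 pigs 10 were of the high RFI line and 1 of the low RFI line. In low RFI pigs alone the difference was -0.23 and not called (BH p = 0.117). The HF mean was lower on all 6 slides, by -0.67 to -0.30. A further PDK1 probe that the authors did not keep, printed above, differed by -0.40 (BH p = 0.000101 over all probes), while the dim O12681, with a median intensity of 75.3, differed by -0.04 (BH p = 0.646).

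PDK2 and PDK3 showed no called difference. PDK2 ranged from -0.44 to 0.60 in HF and from -0.24 to 0.50 in LF pigs, and its difference of -0.01 had a 95% interval of -0.16 to 0.13. PDK3 ranged from 2.78 to 4.03 in HF and from 2.98 to 4.14 in LF pigs, with a difference of -0.08 and an interval of -0.26 to 0.10. The pair of PDK2 probes, with median intensities of 153 and 87.5, correlated at only r = 0.13 across pigs within groups. For PDK3, the second probe followed the brightest at r = 0.98, but both share a run of 16 bases. The dimmest PDK3 probe, with a median intensity of 294.5, did not follow the brightest (r = -0.34).

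The balance between PDK4 and PDK1 was then compared between diets within each pig. The difference PDK4 minus PDK1 was -0.23, 2.55 and 4.13 (lowest, median, highest) in the 24 HF pigs and 0.08, 1.18 and 2.99 in the 24 LF pigs. Its size depends on the brightness of both probes, and only its change between diets is read. That change is the PDK4 difference minus the PDK1 difference, both called above on the same pigs, so its test adds no independent evidence. HF pigs averaged 2.53 ± 1.03 (SD, n = 24) and LF pigs 1.27 ± 0.77 (SD, n = 24), a gap of 1.26 (two-sided permutation test at a threshold of 0.05, p = 4e-05), and 22 of the HF pigs exceeded the LF mean, 8 of them also the highest LF pig. The gap was 1.01 in low RFI pigs (p = 0.0199, permutation) and 1.51 in high RFI pigs (p = 0.00036, permutation). It was 0.94 among pigs scanned on day 1 (p = 0.0273, permutation) and 1.58 on day 2 (p = 4e-05, permutation). The gap was above 0 on all 6 slides, from 0.36 to 2.03. In low RFI pigs neither kinase was called alone, and on scan day 1 PDK4 was not called alone.

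**Figure D3:**
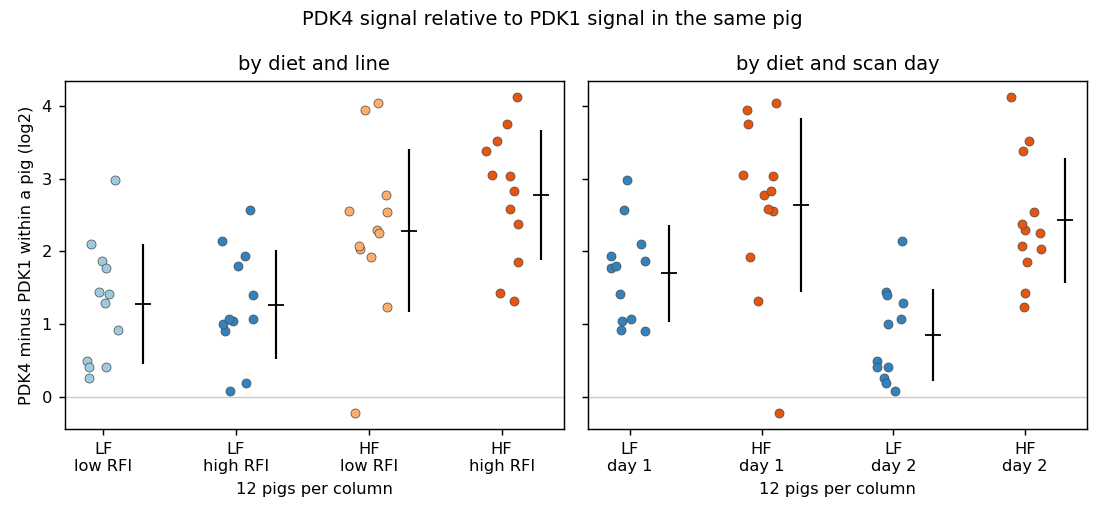
PDK4 minus PDK1 within a pig (log2, y axis) by diet and line (left) and by diet and scan day (right), with 12 pigs per column and the mean and SD beside each. HF columns lie above LF columns in both lines and on both days, and a single HF low RFI pig lies at -0.23, below every LF pig.

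Subunits and kinases were also set against each other within a pig, with each gene first taken relative to its own mean over the 48 pigs. The subunit mean minus the kinase mean was -0.29 ± 0.38 (SD, n = 24) in HF and 0.29 ± 0.30 (SD, n = 24) in LF pigs, a gap of -0.58. The gap was -0.65 for the low RFI line and -0.51 for the high RFI line, and without PDK4 it was -0.33. No test was made of this score. Of the 24 HF pigs, 1 had a score above the LF mean.

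The second comparison asked whether the members differed between the RFI lines. PDK1 was 1.40-fold higher in low RFI than in high RFI pigs and was the 1 called gene of the 9, beside 3.28% of all named genes. Its line difference was 0.48 ± 0.07 (SE; limma, BH p = 2.5e-05), and 23 of 24 low RFI pigs were above the high RFI mean. Low RFI pigs were higher on all 6 slides, by 0.21 to 0.69, and at the other PDK1 probes by 0.40 (BH p = 0.000735 over all probes) and 0.18 (BH p = 0.0580), so that the 3 probes went the same way. The line difference was 0.68 among HF pigs, where it was called, and 0.28 among LF pigs, where it was not (BH p = 0.307).

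At their brightest probes, the other 8 members differed between lines by -0.14 (DLAT) to 0.25 (PDK4). None of these was called or had a raw p under 0.05 in limma. Further kept probes had a raw p under 0.05 in limma but were not called. These were A_72_P648642 of DLD (-0.35, raw p = 0.0131), A_72_P145371 of PDK3 (0.27, raw p = 0.0159) and A_72_P584171 of PDK4 (0.53, raw p = 0.0288). The interval of the PDK4 line difference ran from -0.23 to 0.72, so that neither direction was settled. For PDHA1 the interval was -0.13 to 0.17.

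The third comparison asked whether the diet acted differently in the lines. No member had a called interaction, and 0 of the 38142 probes had one in limma, where 0.291% had a raw p under 0.01. For PDK1 the diet difference was -0.23 in the low RFI line and -0.63 in the high RFI line, an interaction of 0.40 ± 0.15 (SE) with a raw p of 0.00888 and a BH p of 0.9999 (limma), so it did not hold after adjustment. The PDK1 probes that the authors did not keep gave 0.27 (raw p = 0.0752) and -0.02 (raw p = 0.834). It was the 1 member of 9 with a raw p under 0.05, and the two-way ANOVA also called 0 members. For the 5 subunits the diet differences in the lines were close, for example -0.73 and -0.68 for DLAT, with interactions from -0.06 to 0.06.

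Members were further compared across pigs of the same diet, in 8 relations, with a threshold of BH p under 0.05. PDHA1 and DLAT rose and fell together in HF pigs (r = 0.57, permutation p = 0.00392, BH p = 0.0157; rho = 0.61, permutation p = 0.00172, BH p = 0.00688; n = 24) and in LF pigs (r = 0.68, permutation p = 0.00022, BH p = 0.00176; rho = 0.74, permutation p = 5e-05, BH p = 0.0004; n = 24). Without the 2 pigs farthest from the PDHA1 median r was 0.52 and 0.70. Within scan days it was 0.40 and 0.71 in HF pigs and 0.65 and 0.77 in LF pigs.

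PDK4 was lower where DLAT was higher among HF pigs (r = -0.50, permutation p = 0.0129, BH p = 0.0344), but the rank correlation did not pass (rho = -0.46, permutation p = 0.0234, BH p = 0.0624). After subtracting the mean of each line, r was -0.49 (permutation p = 0.0144, BH p = 0.0385) and rho was -0.38 (permutation p = 0.0685, BH p = 0.183). Without the 2 pigs farthest from the PDK4 median r was -0.48, and within scan days it was -0.51 and -0.55. Among LF pigs r was -0.07 (permutation p = 0.744, BH p = 0.832; rho = -0.07, permutation p = 0.738), and whether the diets differ was not tested. PDK4 with PDK1 gave r = -0.08 in HF (permutation p = 0.699, BH p = 0.832; rho = -0.06, permutation p = 0.793) and r = 0.20 in LF pigs (permutation p = 0.354, BH p = 0.567; rho = 0.01, permutation p = 0.945). Without the 2 farthest pigs these were 0.06 and -0.17. After subtracting the mean of each line, whose PDK1 levels differ, they were -0.27 (permutation p = 0.196, BH p = 0.313) and 0.11 (permutation p = 0.598, BH p = 0.797). PDK4 with PDHA1 gave r = -0.34 in HF (permutation p = 0.105, BH p = 0.211; rho = -0.23, permutation p = 0.288) and 0.05 in LF pigs (permutation p = 0.832; rho = -0.05, permutation p = 0.815). For PDK4 and PDHA1 r in HF pigs was -0.10 without the 2 farthest pigs, so that the value of -0.34 rested on them.

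**Figure D4:**
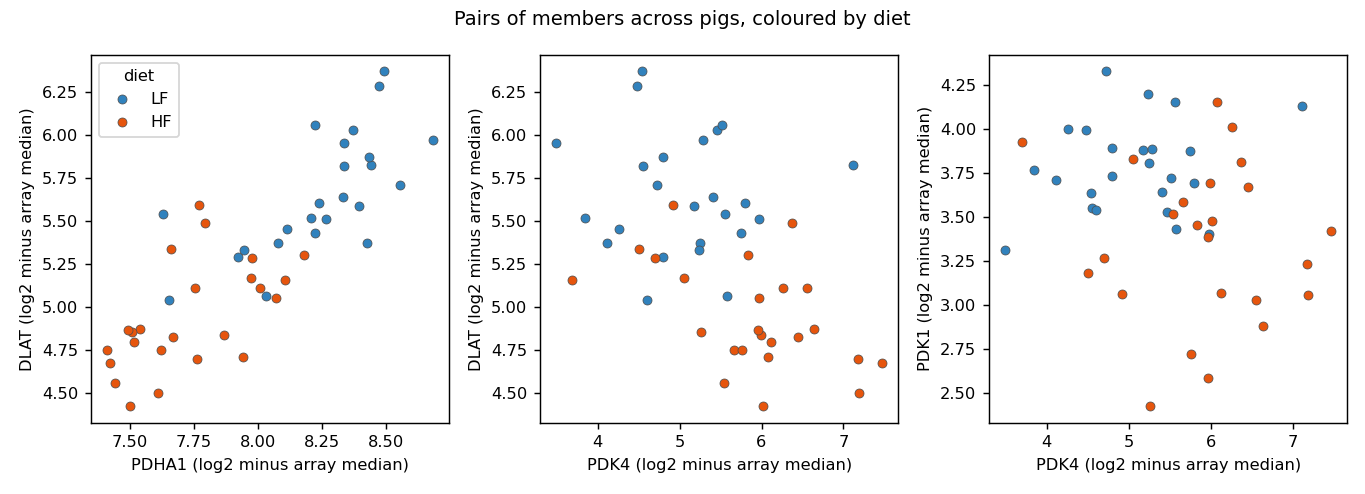
Levels (log2 intensity minus the array median) of pairs of members, with a point per pig coloured by diet. PDHA1 and DLAT rise together within each diet, PDK4 and DLAT slope down among HF pigs (r = -0.50) and not visibly among LF pigs (r = -0.07), and PDK4 and PDK1 show no slope.

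Over all 48 pigs after subtracting the group means, the subunits correlated most among themselves, at r = 0.87 for PDHB with DLAT, 0.79 for DLAT with DLD and 0.74 for PDHA1 with PDHB, whereas PDHX correlated at 0.09 to 0.33 with the other subunits. PDK4 correlated with the 8 other members at -0.28 to 0.04. Among the 8659 named genes, those most like PDHA1 by this measure were SDHB (r = 0.81), VDAC1 (0.81), OPLAH (0.81), PEBP1 (0.81) and CYC1 (0.81), all 5 called lower in HF pigs, VDAC1 by -0.51 and SDHB by -0.28. Those most like PDK4 were RGS3 (r = 0.66), CCNG2 (0.58), KLF9 (0.56), BIVM (0.56) and SLC25A20 (0.54). Of these, RGS3 was called higher in HF pigs (0.43, BH p = 0.0337), and KLF9 differed by 0.00 (log2). The pigs share slides and scan days, and these values are descriptions.

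Genes around pyruvate oxidation were taken from 8 lists of together 101 genes, of which 80 had a kept probe. Of these 80 genes, 36 were called lower and 5 higher in HF pigs, beside 19.2% lower and 6.26% higher among all named genes, so that the count of higher genes is at the background. The counts of each list below are to be read against these shares. With quantile normalization the split was 26 lower and 9 higher, and centred on the 75th percentile it was 31 and 7. With the kept probes of a gene averaged it was 34 and 3. Under these settings 23.8% and 24.3% of all kept probes and 23.7% of all averaged genes were called in either direction. Their shares by direction are not given, so these splits are not read against the background.

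Upstream of the complex, 14 of 20 measured genes of pyruvate supply were lower and none was higher, with a median of -0.30. The largest falls were in HK2, the hexokinase of insulin-responsive tissues (-0.79 ± 0.13, SE, BH p = 1.6e-05), SLC2A4, the insulin-responsive glucose transporter (-0.77 ± 0.18, SE, BH p = 0.000995), and MPC2, a subunit of the carrier that brings pyruvate into mitochondria (-0.66 ± 0.10, SE, BH p = 3.4e-06). Downstream, 8 of 12 citric acid cycle genes were lower and none was higher (median -0.26), among them MDH2 (-0.47) and SDHD (-0.35). The subunits' median of -0.51 lay below both, and their called share of 5 of 5 compares with 14 of 20 and 8 of 12; these shares were not tested against each other.

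Among other fates of pyruvate and citrate export, 5 of 11 genes were lower and 1 was higher (median -0.15). ME1, the cytosolic malic enzyme that supplies NADPH, differed by -1.25, ACACA, which makes malonyl-CoA for fatty acid synthesis, by -0.90 and the citrate carrier SLC25A1 by -0.67. PCK1, the cytosolic carboxykinase that feeds glycerol synthesis in fat, was the exception at 1.72 ± 0.36 (SE, BH p = 0.00027). Complexes related to pyruvate dehydrogenase had 3 of 7 genes lower, namely BCKDHB (-0.51), OGDHL (-0.24) and DLST (-0.18). Of 4 cofactor genes RFK, which makes flavin mononucleotide, was lower (-0.21). The 1 phosphatase with a kept probe, PDP1, differed by 0.12 and was not called (BH p = 0.104).

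PDK4 belongs to a set of genes known to respond to fatty acids and fasting, and that list went both ways. Of its 18 measured genes 4 were higher and 3 lower, with a median of 0.04. The largest called rise was in PPARA, a fatty acid receptor (0.53 ± 0.18, SE, limma BH p = 0.0230). By qPCR, the study reported PPARA as changed by the HF diet only in subcutaneous fat, where it was lower. The lower genes of the list included PPARD (-0.67) and CPT2 (-0.18). PDK1 is known to be induced in hypoxia. In the list of hypoxia genes, 2 of 7 measured genes were lower, P4HA1 (-0.22) and HIF1A (-0.14), and none was called higher. The differences of this list ran from -0.22 to 0.22, with a median of -0.01. Between lines, 3 of the 80 genes were called (SUCLA2, DBT and IDH3A), a share close to the 3.28% of all named genes.

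**Figure D5:**
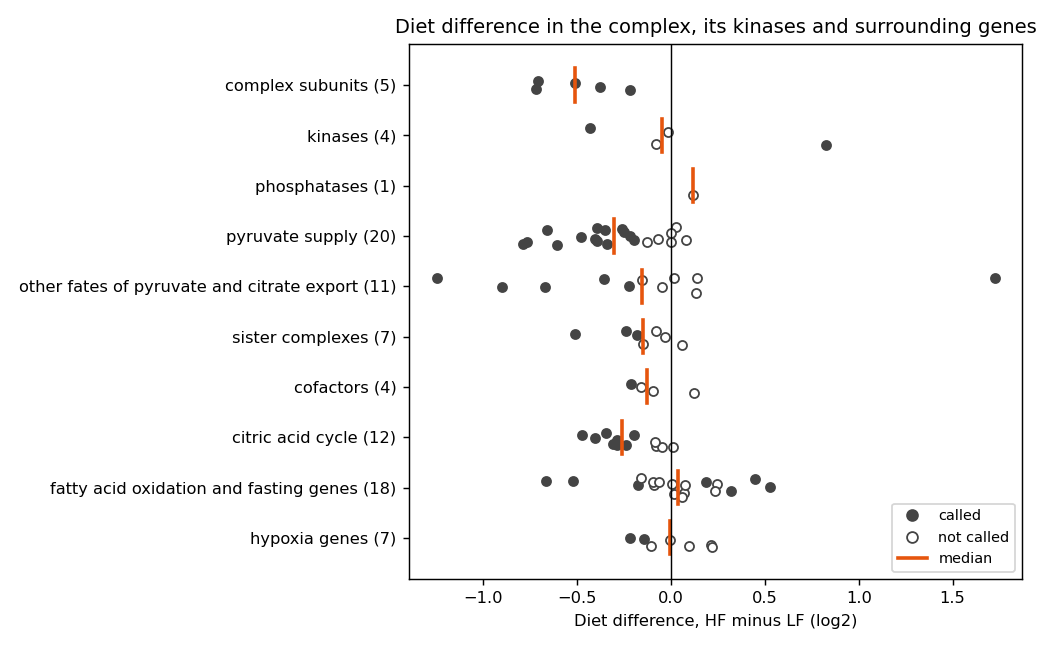
Diet difference (HF minus LF, log2, x axis) of the 5 subunits, the 4 kinases and the 80 genes of the surrounding lists, with filled points for called genes, open points for others and a bar at each median. Subunits, pyruvate supply and citric acid cycle lie mostly below 0, and PDK4 (0.83) and PCK1 (1.72) are the points farthest above 0.

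Some markers of other cell types were called for diet. Their counts are to be read against all named genes, of which 19.2% were called lower and 6.26% higher in HF pigs. Macrophage markers were higher in HF pigs for 4 of 6 genes (CD163 0.70, MRC1 0.66, CSF1R 0.48 and AIF1 0.36), with a mean level per pig of 1.53 to 3.42 in HF and 1.37 to 3.12 in LF pigs. Of 5 T cell markers 1 was higher (CD3G, 0.34), and none of 5 endothelial or 6 fibroblast markers was called. Of 7 adipocyte markers 1 was lower (CIDEC, -0.24), with mean levels of 9.38 to 9.85 in HF and 9.36 to 9.90 in LF pigs. Of 3 brown fat markers CIDEA (-0.42) and COX7A1 (-0.32) were lower, and the 1 kidney marker with a kept probe, AQP2, was lower by -0.63. None of 4 muscle or 3 adrenal markers was called, and DDX4, the 1 testis marker with a kept probe, was not called either. No marker of any of these lists was called between lines. The part of these cell types in the differences of the members was not tested.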

How the data were processed

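The deposited scanner intensity values (Cy3, 1 pig per array) were used as written by the scanner software. The deposited log2 values of 38142 probes were made by the authors in R 2.10.0, per the labels, after filters on intensity, uniformity, saturation and outliers, by taking log2 and subtracting the array median. The deposited other columns used were flags of 0 or 1 for spots above background or saturated. Row labels of the log2 table matched their spot in 2 of 38142 cases, so rows were matched to spots by value (tolerance 1e-06) and were used only to find the kept probes. Genes were named by the scanner files. Named genes were those whose name is a symbol or synonym of a RefSeq gene (Sscrofa11.1), a current or older symbol of a gene name reference, or a member. The authors' filter removed 2 PDK1 probes and 1 DLD probe. Signals without background subtraction compress differences of dim probes. The number of arrays limits the precision.

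Log2 of the median intensity was centred on the array median over all 60306 probes. Diet, line and interaction were fitted with limma 3.58.1 in R 4.3.3 over the 38142 probes, with BH adjustment over all of them. Tested on simulated diet differences in 200 of 38142 probes, it recovered 85% at a log2 difference of 0.4 and 94% at 0.6, with 3 false calls. Permutation tests used 100000 resamples (Python 3.11.15, numpy 2.4.6, scipy 1.17.1, pandas 2.3.3, matplotlib 3.10.9). The members and gene lists were chosen with earlier results of these data known. All members are named; in each list the 3 called genes that fell most and the called gene that rose most are named, and for likeness the 5 genes of highest r. Alternatives were the 75th percentile, quantile normalization, processed signals, normexp (offset 50) with quantiles, no filter, a background filter, two-way ANOVA per probe, replicate number, slide or scan day as a block, BH under 0.05, fold over 1.5, averaging a gene's probes, and each line or diet alone. For PDK4 minus PDK1, each other kept PDK4 probe was also used in place of the brightest. The authors' own centre, each scan day alone (for diet and line) and the PDK1 probes they did not keep were added after seeing the data. PDHA2 and genome positions were not analysed here. A few list genes that the naming rule selects are not reported here.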

Additional observations from a re-analysis of the deposited data

Results flagged for a closer look

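The diet difference of PDK1 was larger in high RFI pigs (-0.63) than in low RFI pigs (-0.23), and the interaction term of 0.40 (log2, low minus high RFI) had a raw p of 0.00888 in limma. It is listed because the difference between the lines was itself tested and passed at the raw level. After BH adjustment over all 38142 probes its p was 0.9999, and 34 of 8659 named genes had a raw p under 0.01. Its raw p ran from 0.00218 to 0.0166 over 13 alternatives and was not under 0.01 in 5 of them. The PDK1 probes that the authors did not keep gave interactions of 0.27 (raw p = 0.0752) and -0.02 (raw p = 0.834).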

How the results depend on the processing

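The number of members called for diet stayed within 1.5 times the reported 7 of 9 under 16 of 18 alternatives. It was 3 at a fold over 1.5 (PDHB, DLAT and PDK4), where 1.1% of all kept probes were called. In low RFI pigs alone it was 4, without PDHX, PDK1 and PDK4, where 13.2% of all kept probes were called. The share of all kept probes called in the main fit was 24.5%. The count for line was 0 at a fold over 1.5 (0.582% of all kept probes called) and 0 in LF pigs alone (0.312%). It was 1 under the other 16, and the count for interaction was 0 under all 13. PDK2 turned sign with centring on the 75th percentile (0.00818) and on scan day 1 alone (0.0257), and PDK3 in low RFI pigs alone (0.0333) and on scan day 1 alone (0.0592); neither gene was called under any alternative. On scan day 1 alone 5 members were called, without PDHX and PDK4, beside 13.0% of all kept probes. PDK4 minus PDK1 lay between 0.87 and 1.58 and had a permutation p under 0.05 under all 22 alternatives. Many of these only used another PDK4 probe, including the identical O11548. Those probes tracked the brightest at r of 0.94 to 0.999 and are not separate checks. Subunits minus kinases lay between -0.65 and -0.33. The surrounding lists had 35 to 38 called genes against 41. Same-numbered pigs, which share a slide, correlated at a median of 0.12 and other pigs at -0.01, and 38 of 72 same-numbered pairs were over 0.1. Pigs of the same slide correlated at a median of 0.09 and pigs of other slides at -0.02. Whether replicate numbers pair the pigs was not tested. With the replicate block 7 members were called for diet, 1 for line and 0 for interaction, and PDK4 minus PDK1 was 1.26. Dim probes limit PDK2, whose median intensities were 153 and 87.5. The cause of these changes was not tested.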
